A study of Mus musculus with 12 samples.

Results

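The genes described here make ceramide, the core of the sphingolipids, and they were followed in adipocytes that carried wild-type or mutant PPARγ, the nuclear receptor that drives fat cell formation. The group held 10 genes of the 55573 in the count table. They were the subunits of serine palmitoyltransferase (Sptlc1, Sptlc2, Sptlc3, Sptssa and Sptssb), 4 ceramide synthases (Cers2, Cers4, Cers5 and Cers6) and the desaturase Degs1. The group was chosen by gene symbol, and it was chosen because Sptlc3 had been seen to differ strongly between the mutants, so the values of Sptlc3 in these libraries are given as a description and were not tested. For the same reason the members' differences between the mutants are given as values with no p.

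RNA was sequenced from cultured adipocytes. They had been differentiated from the stromal vascular fraction (SVF), the mix of precursor and other cells left when adipose tissue is digested and its mature fat cells are taken away. The donors were homozygous C57BL/6 mice with wild-type PPARγ (WT), with T166A (TA), where alanine cannot be phosphorylated, or with T166D (TD), where aspartate imitates the phosphorylated threonine. Each of the 3 genotypes had 4 libraries. For the first days all cultures received the same adipogenic medium, with 850 nM insulin, 1 nM triiodothyronine, 0.5 mM IBMX, 125 nM indomethacin and dexamethasone. A maintenance medium with the same insulin and triiodothyronine followed, and the cultures were harvested on day 8. The mutations were made in the germ line by CRISPR and were therefore present in every cell of the donor, precursors included. The labels do not say whether the 4 libraries of a genotype came from separate mice, so p-values measure the spread between libraries, which may be technical. Total counts ran from 18823619 to 20324286 in WT, from 16950175 to 18182526 in TA and from 16553324 to 18357864 in TD.

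Serine palmitoyltransferase opens the pathway by joining serine to a fatty acyl-CoA. Its large subunits pair Sptlc1 with a catalytic partner, either Sptlc2 or Sptlc3, and the Sptlc3 enzyme is known for accepting a wider range of acyl chains and so making sphingoid bases of unusual length. The small subunits Sptssa and Sptssb raise its activity, and the Ormdl proteins restrain it when ceramide is plentiful. Ceramide synthases then attach the second acyl chain, with Cers2 preferring very long chains and Cers5 and Cers6 the shorter palmitoyl chain, and Degs1 converts dihydroceramide into ceramide. In fat tissue, ceramides are known for their interference with insulin signaling.

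Sptlc3 (ENSMUSG00000039092) lies on the forward strand of chr2:139493913-139637674 in GRCm38, and Sptlc2 (ENSMUSG00000021036) on the reverse strand of chr12:87305058-87388355. The promoters of the 3 members that differed most in TA, or that stand in for each other in the enzyme, are shown from 250 bases before to 50 bases after the start, on the strand of the gene, with each CpG in capitals (RefSeq, GRCm38.p6). The Sptlc3 window is chr2:139493663-139493962, that of Sptlc2 chr12:87388306-87388605 and that of Sptssa chr12:54656523-54656822.
Sptlc3: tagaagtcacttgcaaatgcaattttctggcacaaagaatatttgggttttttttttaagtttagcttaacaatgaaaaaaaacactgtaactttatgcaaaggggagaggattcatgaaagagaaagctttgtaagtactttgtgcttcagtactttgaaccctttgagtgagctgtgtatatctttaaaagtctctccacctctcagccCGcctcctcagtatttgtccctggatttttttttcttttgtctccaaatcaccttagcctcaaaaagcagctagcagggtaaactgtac
Sptlc2: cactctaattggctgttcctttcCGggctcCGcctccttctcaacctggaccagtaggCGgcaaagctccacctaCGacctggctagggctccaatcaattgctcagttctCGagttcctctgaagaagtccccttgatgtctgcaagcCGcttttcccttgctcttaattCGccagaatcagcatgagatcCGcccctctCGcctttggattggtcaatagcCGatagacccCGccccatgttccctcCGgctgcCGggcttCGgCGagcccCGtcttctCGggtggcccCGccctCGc
Sptssa: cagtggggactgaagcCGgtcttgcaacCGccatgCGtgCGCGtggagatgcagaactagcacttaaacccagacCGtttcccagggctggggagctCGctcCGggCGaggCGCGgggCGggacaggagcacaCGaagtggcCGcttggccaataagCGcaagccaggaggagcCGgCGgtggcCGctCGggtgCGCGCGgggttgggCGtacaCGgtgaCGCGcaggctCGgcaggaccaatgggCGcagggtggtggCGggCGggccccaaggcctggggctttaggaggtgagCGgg
The Sptlc3 window held 1 CpG and 37.3% G and C, against 19 CpG and 59.3% for Sptlc2 and 31 CpG and 70.0% for Sptssa. All 10 members were matched, with 11 promoter entries, since Cers2 has a pair of starts. The other 10 entries held 6 to 31 CpG and 52.7% to 75.0% G and C, so Sptlc3 had the fewest CpG of the group. Among all 32851 promoters of this length the medians were 7 CpG and 52.7% G and C, 14.1% held as few CpG as Sptlc3 or fewer, and 6.19% had a lower G and C content. The letters AGGTCANAGGTCA, a spelling of the DR1 element that PPARγ binds with its partner RXR, were in no member's window on either strand and in 0.0396% of all promoters. The shorter AGGTCA, which is contained in it, was in 16.3% of promoters and, among the members, in the downstream Cers2 entry only. TATAAA was in 13.6% of promoters and in none of the members.

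Sptlc3 was the member with the largest differences between genotypes. Its levels are given in CPM, the count scaled to a common TMM-normalized library size. The 4 WT libraries had 3.58, 2.98, 3.57 and 4.27 CPM. TA libraries had 31.3, 34.0, 21.9 and 21.8 CPM. TD libraries had 1.82, 1.35, 1.22 and 1.52 CPM. The genotypes did not overlap, and WT lay between TD and TA. The mean was 7.57 times higher in TA than in WT (log2 fold change 2.92, SE 0.174). It was 2.44 times higher in WT than in TD (log2 fold change of TD against WT -1.28, SE 0.211). Between the mutants, where the gene was picked, the mean was 18.4 times higher in TA than in TD (log2 fold change -4.20, SE 0.195). Behind these levels were 60 to 78 counts in WT, 393 to 553 in TA and 23 to 32 in TD, so TD is the least precise. TA fell into a pair of libraries above 30 CPM and a pair near 22 CPM, yet the lowest TA library remained above each WT library. The noncoding gene Gm14066 lies within Sptlc3 on the opposite strand but shares none of its exon sequence, and its log2 fold change was -0.13 (adjusted p = 0.607) in TA and 0.33 (adjusted p = 0.0747) in TD against WT.

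**Figure D1:**
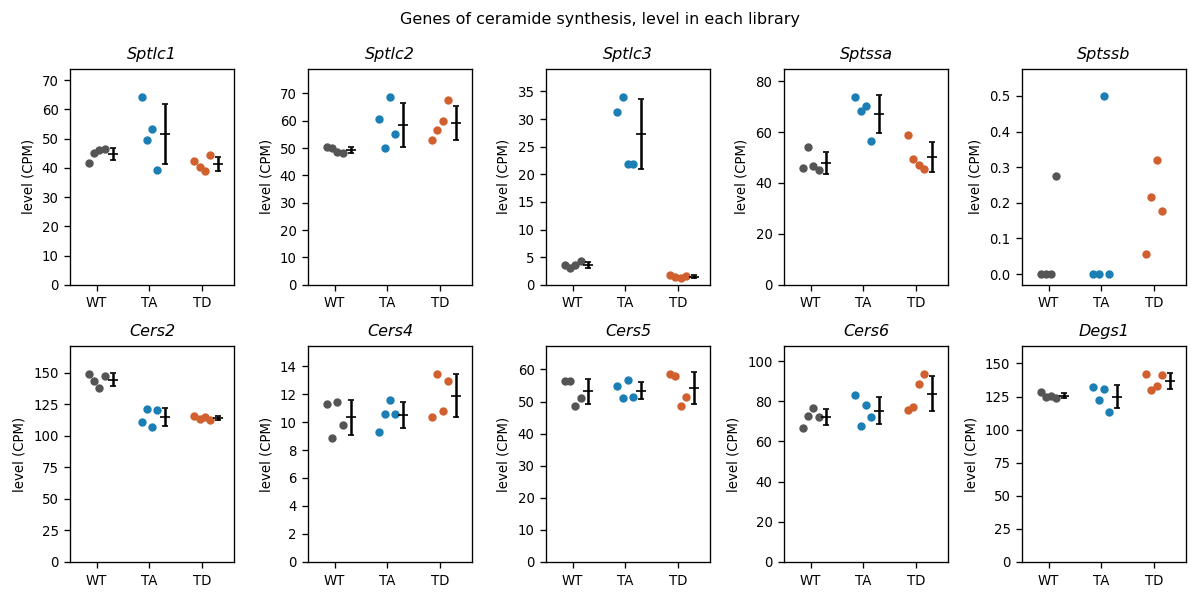
Level of each of the 10 genes in CPM (vertical axes, from 0) in the 4 libraries of WT, TA and TD; points are libraries, and the black bar is the mean with its SD, left out for Sptssb, which had at most 9 counts. Sptlc3 is highest in the 4 TA libraries and lowest in the 4 TD libraries, Sptssa is higher in TA than in WT, and Cers2 is lower in both mutants than in WT.

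Other values moved with genotype as well. Pparg, the mutated gene, had 330.6 to 373.0 CPM in WT, 322.2 to 428.2 in TA and 210.1 to 258.1 in TD, so it was lower in TD than in WT (log2 fold change -0.58, SE 0.0946, adjusted p = 0.000429) and did not pass the test in TA (0.08, adjusted p = 0.67). The point mutation itself cannot be seen in gene counts. The summed level of 6 adipocyte markers was 10700 to 12800 CPM in WT, 11300 to 14600 in TA and 7090 to 8690 in TD, so the TD libraries lay below the other genotypes. Fabp4 held most of this sum. Adipoq, Plin1, Fabp4 and Cidec each lay lower in TD than in WT and TA without overlap. Cfd in TD (658 to 930 CPM) overlapped TA (712 to 1180). Lep was lowest in TA, with 52.8 to 78.5 CPM against 83.0 to 119 in TD and 117 to 139 in WT. The 6 preadipocyte and fibroblast markers summed to 8710 to 12000 CPM in WT, 9840 to 17900 in TA and 15100 to 23000 in TD. For macrophages the 6 markers summed to 263 to 765, 127 to 559 and 590 to 826 CPM in WT, TA and TD. The 4 endothelial markers summed to 18.5 to 43.6, 38.9 to 67.9 and 81.2 to 107 CPM in the same order, the 6 muscle markers to 1.34 to 4.05, 6.20 to 31.4 and 7.72 to 106 CPM, and the 6 epithelial markers, of which 2 passed the filter on low counts, to 0.0496 to 2.25, 0.292 to 3.34 and 1.31 to 4.69 CPM. No marker was at 0 in every library, although Dlk1 had a highest count of 1. The part of cell makeup in the levels of Sptlc3 or of any gene below was not tested, and in bulk RNA fewer adipocytes and less RNA per adipocyte cannot be told apart.

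Levels of different genes were compared per kilobase of exon. On this scale the WT libraries had 5.94 to 6.20 CPM per kilobase of Sptlc2 and 1.05 to 1.502 of Sptlc3, so Sptlc2 was the main catalytic subunit in WT. In TA the Sptlc3 level was 7.68 to 11.95 and that of Sptlc2 6.16 to 8.46, and these ranges overlap. In TD the Sptlc3 level was 0.430 to 0.639 and that of Sptlc2 6.51 to 8.33. Sptlc3 thus made up 17.2% ± 2.35 (SD, n = 4) of the summed Sptlc2 and Sptlc3 level in WT, 56.6% ± 7.97 in TA and 6.72% ± 1.53 in TD. Its share in the TA libraries was 59.6%, 66.0%, 47.6% and 53.1%, which made it the larger part in 3 of the 4 on this scale. That count depends on the length used, which was 8115 bases of exon for Sptlc2 and 2845 for Sptlc3. The longest transcripts held 6710 and 2759 bases, and with them Sptlc2 would be the larger part in TA3 and TA4. Counted without the correction for length, the Sptlc3 shares were 6.81%, 31.8% and 2.47% in WT, TA and TD, and Sptlc2 was then the larger part in each library. The summed level was 7.34 ± 0.122 CPM per kilobase in WT, 16.8 ± 1.86 in TA and 7.82 ± 0.754 in TD. Sptlc1, the obligatory partner, stood at 1.72 ± 0.0989 times that sum in WT, 0.860 ± 0.111 times in TA and 1.499 ± 0.122 times in TD. On this scale the catalytic subunits together exceeded Sptlc1 in each TA library. Which side is larger depends on the length used. In CPM without that correction, the WT mean of Sptlc2 alone was 49.3 against 44.8 for Sptlc1. These shares follow from how Sptlc3 was chosen and were not tested, and they are of RNA, not of enzyme.

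**Figure D2:**
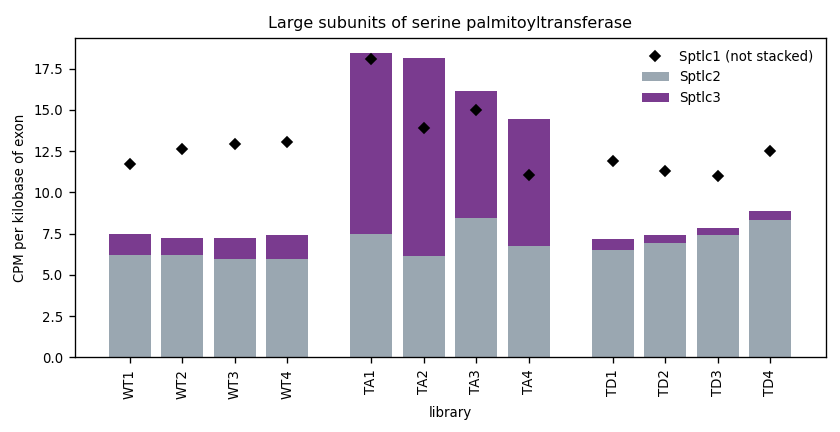
CPM per kilobase of exon (vertical axis) in each of the 12 libraries; stacked bars are Sptlc2 and Sptlc3, and diamonds are Sptlc1, not stacked. The Sptlc3 part of the bar is 47.6% to 66.0% in TA, 14.5% to 20.2% in WT and 5.50% to 8.94% in TD, and the Sptlc2 part runs from 5.94 to 8.46 CPM per kilobase over all libraries.

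In the order of levels per kilobase Degs1 came first in each genotype, with 48.5 ± 0.753 CPM per kilobase in WT, 48.2 ± 3.32 in TA and 52.7 ± 2.29 in TD, though in TA its libraries overlapped those of Sptssa. Cers2 and Sptssa were next, at 39.3 ± 1.40 and 31.5 ± 2.74 in WT, with Sptssa above Cers2 in both mutants and their libraries overlapping in TD. Cers5 and Sptlc1 followed, at 15.01 ± 1.10 and 12.6 ± 0.615 in WT, then Cers6 at 8.11 ± 0.452 and Sptlc2 at 6.08 ± 0.135. Sptlc3 ranked 8 in WT, above Cers4, and 9 in TD, below it. In TA Sptlc3 ranked 6, where its libraries overlapped those of Sptlc1 above it and of Cers6 below it. Also in TA, Cers5 overlapped Sptlc1, and Cers6 overlapped Sptlc2. The small subunit Sptssb was at the foot of the order, with 0, 0, 0 and 5 counts in WT, 0, 0, 9 and 0 in TA and 1, 4, 6 and 3 in TD. It did not pass the filter on low counts and is given no comparison. The order of Degs1, Cers2 and Sptssa depends on the length used. The union of exons held 3676 bases for Cers2, 2591 for Degs1 and 1518 for Sptssa, and the longest transcripts 2216, 2048 and 1346. With the longest transcripts Cers2 would come before Degs1 in WT and before Sptssa in both mutants.

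The other 9 members address whether the rest of the enzyme set differed from WT in the mutants. Of these 9 genes 8 passed the filter and were tested, and in each mutant 1 was higher and 1 was lower than in WT. In TA that was 25.0% of the 8, against 11.1% of all 15117 genes tested (6.72% higher and 4.41% lower). In TD it was 25.0% as well, against 29.2% of all genes tested (15.1% higher and 14.2% lower), so in TD the share of the members was near that of any gene. Over these 8 genes the median difference on the log2 scale was 0.0437 in TA and 0.0956 in TD, where all tested genes had -0.00555 and 0.0112. Both comparisons use the same WT libraries.

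Sptssa, the small subunit that activates the enzyme, was higher in TA. Its level was 45.7, 54.0, 46.7 and 44.9 CPM in WT, 73.8, 68.2, 70.3 and 56.4 CPM in TA and 58.8, 49.3, 47.2 and 45.7 CPM in TD. The lowest TA library lay above the highest WT library, whereas TD overlapped WT. The log2 fold change was 0.49 in TA (SE 0.0983, 95% interval 0.28 to 0.70, adjusted p = 0.00385) and 0.07 in TD (interval -0.14 to 0.28, adjusted p = 0.638). TD against TA was -0.42 and was not tested.

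Cers2, the synthase of very long chain ceramides, was lower in both mutants. WT libraries had 149.0, 143.3, 137.7 and 147.9 CPM, TA libraries 110.9, 121.1, 107.0 and 120.4 CPM, and TD libraries 115.6, 113.5, 115.2 and 112.9 CPM. Each WT library lay above each mutant library, and TD lay within the range of TA. The log2 fold change was -0.33 in TA (SE 0.0631, adjusted p = 0.00266) and -0.34 in TD (SE 0.0631, adjusted p = 0.00101). TD against TA was -0.01, not tested. Cers2 shares 75 bases of exon with Setdb1 and 144 bases with 6330562C20Rik. Neither of these genes was called, with adjusted p of 0.33 and 0.528 in TA and 0.952 and 0.721 in TD.

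Sptlc2, the usual catalytic subunit, was slightly higher in TD. It had 50.3, 50.2, 48.6 and 48.2 CPM in WT, 60.5, 50.0, 68.7 and 55.0 CPM in TA and 52.8, 56.4, 60.0 and 67.6 CPM in TD. The TD libraries lay above each WT library, and TA overlapped WT in 1 library. The log2 fold change in TD was 0.26 (SE 0.0947, interval 0.06 to 0.46, adjusted p = 0.0466). That call was lost in 11 of 17 other settings, with adjusted p of 0.0674 to 0.102 without any of the 4 WT libraries, 0.0602, 0.0983 and 0.171 without TD2, TD3 and TD4, and 0.0562 without TA1. In TA the log2 fold change was 0.25 (interval 0.05 to 0.45, adjusted p = 0.107), and without TA2 it was 0.31 (adjusted p = 0.0367). TD against TA was 0.02 (SE 0.0945, not tested), while Sptlc3 lay on opposite sides of WT in the mutants.

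Sptlc1, the partner of both catalytic subunits, did not pass the test in either mutant. Its level was 41.6 to 46.4 CPM in WT, 39.3 to 64.3 CPM in TA and 39.1 to 44.4 CPM in TD, so the TA libraries spread over the range of the others and beyond it. The log2 fold change was 0.20 in TA (interval -0.03 to 0.44, adjusted p = 0.269) and -0.11 in TD (interval -0.35 to 0.12, adjusted p = 0.49). Without TA4, the lowest TA library, the TA value was 0.31 and passed the test (adjusted p = 0.0399).

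Degs1 and Cers6 did not pass the test in either mutant. Degs1 had 123.9 to 128.4 CPM in WT, 113.6 to 132.3 CPM in TA and 130.0 to 141.9 CPM in TD, and the TD libraries did not overlap WT. Its log2 fold change was 0.12 in TD (interval -0.02 to 0.26, adjusted p = 0.181) and -0.01 in TA (adjusted p = 0.95). Cers6, a synthase of palmitoyl ceramide, had 66.7 to 76.4 CPM in WT, 67.8 to 83.3 CPM in TA and 75.8 to 93.5 CPM in TD. Its log2 fold change was 0.22 in TD (interval 0.04 to 0.40, adjusted p = 0.0651) and 0.06 in TA (adjusted p = 0.703). Without TD1 the Cers6 value was 0.26 and passed the test (adjusted p = 0.0415). With scaling by library totals alone, both genes were called higher in TD, Cers6 with 0.28 (adjusted p = 0.0208) and Degs1 with 0.19 (adjusted p = 0.039).

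Cers5, of the palmitoyl branch, and Cers4, which prefers long chains, did not pass the test in either mutant. Cers5 had 48.7 to 56.5 CPM in WT, 51.0 to 56.6 CPM in TA and 48.6 to 58.5 CPM in TD, with log2 fold changes of 0.01 in TA (interval -0.16 to 0.17) and 0.03 in TD (interval -0.14 to 0.20). Cers4 had 8.84 to 11.5 CPM in WT, 9.30 to 11.6 CPM in TA and 10.3 to 13.4 CPM in TD, with 0.02 in TA (interval -0.25 to 0.29) and 0.20 in TD (interval -0.07 to 0.47, adjusted p = 0.257). The intervals therefore leave room for differences in TD of up to 0.20 for Cers5 and 0.47 for Cers4.

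**Figure D3:**
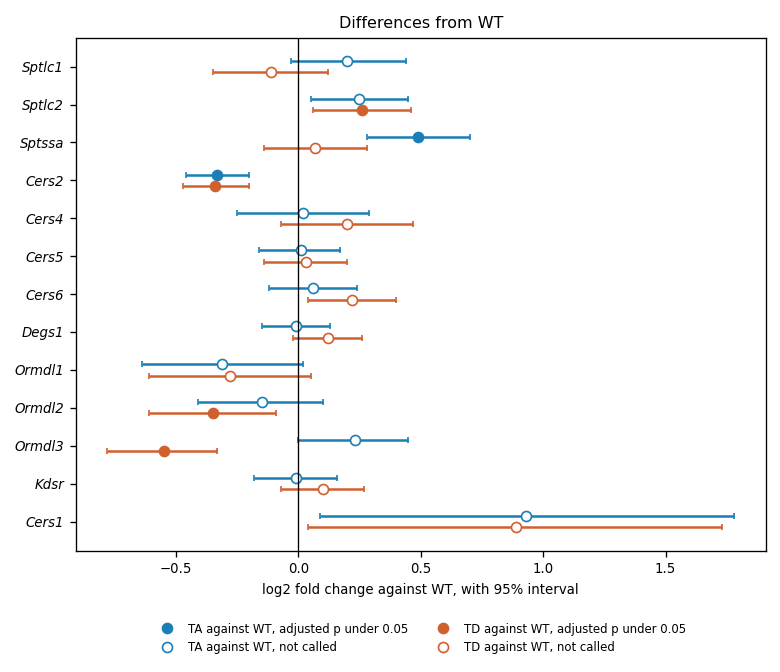
Log2 fold change against WT (horizontal axis) with its 95% interval for the 8 tested members other than Sptlc3 and for 5 further genes of ceramide synthesis; blue is TA, orange is TD, and filled points have an adjusted p under 0.05. Cers2 is filled on the left for both mutants, Sptssa on the right for TA, Sptlc2 on the right for TD, and Ormdl3 and Ormdl2 on the left for TD.

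The 4 ceramide synthases together had 63.3 ± 1.77 CPM per kilobase in WT, 55.7 ± 0.578 in TA and 56.8 ± 0.612 in TD, and the libraries of each mutant lay below those of WT. Cers2 made up 62.1% ± 0.965 (SD, n = 4) of this sum in WT, 56.1% ± 2.96 in TA and 54.7% ± 0.915 in TD. Cers5 made up 23.7% ± 1.23, 27.1% ± 1.64 and 26.9% ± 2.18 in the same order, and Cers6 12.8% ± 1.06, 15.2% ± 1.45 and 16.6% ± 1.84. The Cers2 share of 53.1% to 59.0% in TA and 54.0% to 56.0% in TD did not reach the WT range of 61.1% to 63.3%. In Cers4 the share was 1.33% ± 0.180, 1.54% ± 0.148 and 1.71% ± 0.218.

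Over the 12 libraries the log2 CPM of Sptlc3 correlated most with that of Sptssa among the members (Pearson r = 0.791) and then with that of Sptlc1 (0.655), and hardly with that of Sptlc2 (0.0613). Sptlc2 had its highest correlation with Cers6 (0.749) and its lowest with Cers2 (-0.805). These points fall into 3 genotypes, and the genes of a library share its scaling, so the values describe the libraries and carry no test.

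Among the 594 genes outside the group whose highest genotype mean reached 5 CPM and whose genotype means spanned at least 1 in log2 CPM, those with the pattern most like Sptlc3 were Aldh3b2 (Pearson r of log2 CPM over the 12 libraries 0.997), Gpd1 (0.985), Tmem86a (0.983), Slc25a1 (0.982) and Ephx2 (0.980). Aldh3b2, an aldehyde dehydrogenase of lipid droplets, had 62.9 ± 7.04 CPM in WT, 168 ± 16.7 in TA and 40.4 ± 2.94 in TD. Gpd1, which makes glycerol 3-phosphate for triglyceride, had 465 ± 70.4, 1240 ± 175 and 335 ± 21 CPM. Slc25a1, the mitochondrial citrate carrier, had 489 ± 25.6, 871 ± 61.2 and 407 ± 26.7 CPM. Ephx2, soluble epoxide hydrolase, had 176 ± 15.5, 334 ± 47.1 and 130 ± 13.1 CPM, and Tmem86a had 22.7 ± 2.92, 44.4 ± 2.90 and 17.5 ± 1.43 CPM. Each was highest in TA and lowest in TD, an order that follows from their choice by likeness to Sptlc3. Their ratios between TA and WT were smaller than that of Sptlc3.

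**Figure D4:**
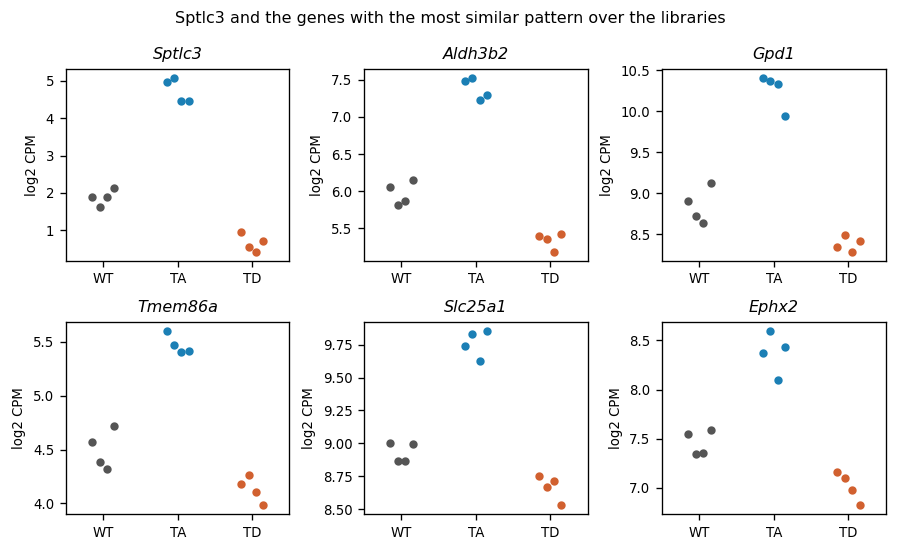
Log2 CPM (vertical axes, each with its own range) of Sptlc3 and of the 5 genes whose pattern over the 12 libraries is most like it, by genotype; points are libraries. In each panel the 4 TA libraries are highest and the 4 TD libraries lowest, which for the 5 genes follows from their choice by likeness. The correlations with Sptlc3 are 0.980 to 0.997.

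Around these enzymes a list of 59 further genes of sphingolipid metabolism was examined, of which 49 passed the filter. In TD 14 of the 49 were higher and 7 lower than in WT, 42.9% against 29.2% of all genes tested, and their median log2 fold change was 0.0657. Without WT4 or without TD4 the count fell from 21 to 13 and 12. In TA 3 were higher and 3 lower, 12.2% against 11.1% of all genes tested, with a median of 0.0501, and without TA2 there were 10. Between the mutants 11 were higher and 5 lower in TD, 32.7% against 16.7% of all genes tested (7.33% higher and 9.37% lower), from which nothing is read, since that contrast chose Sptlc3. Without TA2, TD3 or TD4 that count was 8, 9 and 8.

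Of the rest of ceramide synthesis, 5 of 7 genes were tested. Ormdl3, an inhibitor of serine palmitoyltransferase, had 282.2, 284.7, 273.9 and 272.4 CPM in WT, 296.8, 387.5, 259.1 and 360.7 CPM in TA and 207.0, 195.8, 190.2 and 166.3 CPM in TD. It was lower in TD than in WT without overlap (log2 fold change -0.55, SE 0.107, adjusted p = 0.00131), and the TA libraries spread around the WT libraries (0.23, interval 0.00 to 0.45, adjusted p = 0.191). Without TA3 the TA value was 0.32 and passed the test (adjusted p = 0.0357). Ormdl3 and Sptlc3 were thus both lowest in TD, and a link between them was not tested. The log2 fold change of Ormdl3 between the mutants was -0.78. Ormdl2, of the same family, was lower in TD (-0.35, SE 0.121, adjusted p = 0.0394), with 10.1 to 13.8 CPM against 12.6 to 17.7 CPM in WT and a call that was lost in 7 of 17 other settings, at adjusted p of 0.106, 0.132, 0.123, 0.0859 and 0.0812 without WT1, WT4, TD2, TD3 and TD4. Of its exon sequence 1114 bases also belong to Dnajc14 on the opposite strand, so its counts are uncertain. Ormdl1 had a log2 fold change of -0.28 in TD (adjusted p = 0.186) and -0.31 in TA (adjusted p = 0.227). Kdsr, the reductase of the second step, had 0.10 in TD (adjusted p = 0.371) and -0.01 in TA (adjusted p = 0.965). Cers1 was near the floor of detection, with 5 to 25 counts, and had 0.89 in TD (adjusted p = 0.108) and 0.93 in TA (adjusted p = 0.154). Both Cers1 values passed the test without WT3, at 1.37 (adjusted p = 0.0214) and 1.41 (adjusted p = 0.0421). Cers1 also shares 1349 bases of exon (42.5%) with Gdf1 on the same strand, which had a mean of 0 counts. The Cers1 counts are therefore uncertain. Cers3 and Degs2 had at most 8 counts in a library and were not tested.

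Serine, the other substrate, is made by Phgdh, Psat1 and Psph. Phgdh, the entry enzyme, had 49.9, 39.3, 43.1 and 52.0 CPM in WT, 22.7, 18.9, 26.6 and 23.7 CPM in TA and 40.1, 38.2, 42.4 and 35.7 CPM in TD. It was lower in TA, with each TA library below each library of the other genotypes (log2 fold change against WT -1.0, SE 0.109, adjusted p = 1.92e-05). Phgdh was thus lowest in the genotype in which Sptlc3 was highest, and a link between these genes was not tested. Psat1 was lower in TD (-0.21, SE 0.0773, adjusted p = 0.0485), a call that was lost in 10 of 17 other settings, with adjusted p of 0.0561 to 0.137 without WT1, WT3, WT4, TA2 or any TD library and 0.171 with scaling by library totals.

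Of 17 genes of ceramide transport and complex sphingolipids 13 were tested. In TD 3 were higher and 1 was lower than in WT, 30.8% against 29.2% of all genes tested. The higher genes were A4galt, the synthase of globotriaosylceramide (log2 fold change 0.86, SE 0.135, adjusted p = 0.000324), B4galnt1 (0.72) and B4galt5 (0.72), of which the last pair was named after its values were seen. B4galnt1 shares 715 bases of exon (20.7%) with Slc26a10 on the opposite strand, so its counts are uncertain. B4galt6, a lactosylceramide synthase like B4galt5, was lower in TA, with 10.7, 12.4, 12.5 and 7.95 CPM against 18.7 to 20.3 CPM in WT (-0.84, SE 0.123, adjusted p = 0.000281). In TD it was -0.34 (adjusted p = 0.0425), a call that was lost in 11 of 17 other settings, with adjusted p of 0.0514 to 0.114 without TA1 or any WT or TD library. Gltp, which carries glycolipids between membranes, was higher in TA (0.44, SE 0.107, adjusted p = 0.0133) but did not pass without TA1 (0.36, adjusted p = 0.0542).

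Of 21 genes of breakdown 20 were tested, and in TD 6 were higher and 3 lower than in WT, 45.0% against 29.2% of all genes tested. The largest rise was in Glb1, the lysosomal beta-galactosidase (0.44, SE 0.0766, adjusted p = 0.000679), which shares 165 bases of exon with Tmppe. The largest fall was in Acer2, an alkaline ceramidase (-0.41, SE 0.147, adjusted p = 0.0454), and that call was lost in 8 of 17 other settings, with adjusted p of 0.0541 to 0.135 without WT2, WT3, TA1, TA4, TD1, TD3 or TD4. In TA 10.0% of the 20 were called, against 11.1% of all genes tested. Only Gm2a, a lysosomal lipid activator, was higher (0.40, SE 0.0674, adjusted p = 0.001) and only Galc, galactosylceramidase, was lower (-0.42, SE 0.0971, adjusted p = 0.00963) among these 20.

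Sphingosine phosphate, made from ceramide breakdown products, acts through its own receptors. Of 11 genes of this branch 8 were tested, and in TD 5 were higher and none lower than in WT. That was 62.5% against 29.2% of all genes tested in either direction, and against 15.1% that were higher. The median log2 fold change was 0.527. The 5 higher genes were the receptors S1pr3, S1pr1 and S1pr2, the exporter Spns2 and the kinase Sphk1. Of these S1pr3 was named by rule and the others after their values were seen. S1pr3 had 58.5, 78.1, 83.0 and 72.2 CPM in WT, 118.0, 104.0, 110.5 and 142.1 CPM in TA and 152.7, 161.8, 153.6 and 174.7 CPM in TD. The genotypes did not overlap, and the log2 fold change against WT was 0.70 in TA (SE 0.109, adjusted p = 0.000479) and 1.14 in TD (SE 0.109, adjusted p = 2.57e-05). The other 4 had log2 fold changes in TD of 1.07 for S1pr1, 0.63 for S1pr2, 1.09 for Spns2 and 0.43 for Sphk1. Spns2 had only 10 to 34 counts in WT and 26 to 65 in TD, and its TD libraries overlapped WT. It also shares 131 bases of exon with Mybbp1a on the opposite strand. In TA S1pr3 was the gene called among these 8. S1pr1 and S1pr3 are also used by endothelial and stromal cells, whose markers were highest in TD as given above, and the part of those cells in these values was not tested.

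Between the mutants the values of the list are given as a description. The genes named are, for each of the 5 lists and where there was any, the one with the largest rise and the one with the largest fall past the threshold, so other genes of a list may exceed those of another. As log2 fold changes of TD against TA, the values were 0.77 for Phgdh, 0.62 for B4galnt1, 0.60 for S1pr1 and 0.38 for Gla among genes higher in TD. The calls were lost in 7 of 17 other settings for S1pr1 (adjusted p up to 0.115) and in 7 of 17 for Gla (up to 0.12). Among genes lower in TD the values were -0.78 for Ormdl3, -0.49 for Gm2a, -0.40 for Sphk2, -0.39 for Gltp and -0.32 for Psat1, and the call of Gltp was lost in 5 of 17 other settings (adjusted p up to 0.0767). Sphk2, a sphingosine kinase, shares 539 bases of exon with Dbp and 373 with Rpl18, so its counts are uncertain. The same holds for B4galnt1, as given above.

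**Figure D5:**
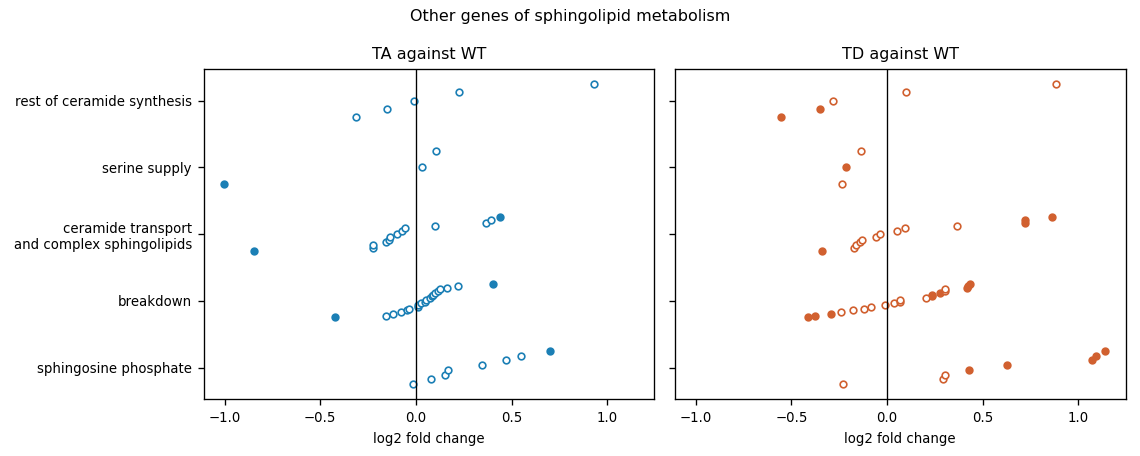
Log2 fold change against WT (horizontal axes) of the 49 tested genes of sphingolipid metabolism outside the group, by list (vertical axis), in TA (left) and TD (right); each point is a gene, filled where the adjusted p is under 0.05. In TD 21 genes are filled and in TA 6, and in TD the 5 filled points of the sphingosine phosphate list are all to the right of 0.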

How the data were processed

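Reads of 12 libraries were trimmed with cutadapt 1.9.1, aligned to GRCm38 with HISAT2 2.0.1 and counted per gene with HTSeq 0.6.1, according to the submitters' processing notes, and the authors deposited these read counts without normalization for 55573 genes. The strand setting of the counting is not given in the sources used here. The library files equalled their columns of the table. Gene positions, exon lengths and overlaps were taken from GENCODE M21 on the same build, where 55394 identifiers (99.68%) were found.

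The filterByExpr function of edgeR 4.0.16 in R 4.3.3 (min.count 10, min.total.count 15) kept 15117 genes. Libraries were scaled by TMM (factors 0.957 to 1.04) and edgeR's quasi-likelihood test was run in a joint fit of the 12 libraries, whose common biological coefficient of variation was 12.9%. Tests were two-sided with Benjamini-Hochberg adjustment across all tested genes, and calls were made at an adjusted p under 0.05. The authors' methods name DESeq2, which was run here in version 1.42.0 as an alternative. Other settings were scaling by library totals, RLE size factors, no filter (29115 genes), a replicate block and leaving out each library. The steps were tested on simulated data. Log2 CPM used a prior count of 2. Levels per length divided CPM by the union of a gene's exons. Intervals cover the spread between the libraries. Replicates of a genotype differed beyond sampling noise in each of the 18 pairs (chi-square 4.95 to 38.7 per degree of freedom).

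The members and lists were chosen with earlier results of these data known. The genes named are the members, Pparg, the rest of ceramide synthesis, in each list and comparison the called gene with the largest rise and the largest fall, and the 5 genes with the pattern most like Sptlc3. Extremes of the contrast between the mutants, which chose Sptlc3, are given as a description only.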

Additional observations from a re-analysis of the deposited data

Results flagged for a closer look

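Sptssb had 0.274 CPM in WT4 and 0 in the other 3 WT libraries, and 0.501 CPM in TA3 and 0 in the other 3 TA libraries. In each case 1 library lay apart from 3 that were equal, which gives the largest gap this test allows. These values rest on 5 and 9 counts. They were the 2 flags among 51 groups of 4 libraries (17 genes in 3 genotypes), where chance flags about 1 group in 20.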

How the results depend on the processing

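Each of 61 log2 fold changes was recomputed under 17 other settings, 1037 comparisons in all, of which 941 kept their direction and their side of the threshold or, if untested, moved by less than the SD of the replicates. The calls of Sptssa in TA and of Cers2 in both mutants held in each of the 17. The count of the other 9 members called in TD was 2 and became 4 with library totals, 1 with RLE size factors, 1 with DESeq2, 1 with the replicate block and 1 to 3 with a library left out. In TA it was 2 to 3 with a library left out. For the list of 59 genes, leaving out a library gave 12 to 26 called in TD, 5 to 10 in TA and 8 to 20 between the mutants, and no filter gave 10 in TA. The share of Sptlc3 without length correction was 6.81%, 31.8% and 2.47% in WT, TA and TD, and with a library left out the corrected share stayed at 16.2% to 18.1%, 53.4% to 59.6% and 5.97% to 7.12%.

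Libraries of different genotypes with the same replicate number did not deviate together (r of -0.237 to 0.196, with 2 of 12 pairs over 0.1, and 2 of 12 libraries correlating best with their own number), so the numbers do not pair the libraries. Among the members' other calls against WT the replicate block changed none but that of Sptlc2 in TD.

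Among the tested values, 18 comparisons near 0 changed sign, none of them called. With a library left out, the log2 fold change in TD ran from -0.015 to 0.13 for Sptssa and from -0.012 to 0.076 for Cers5. In TA it ran from -0.046 to 0.075 for Cers4, from -0.04 to 0.036 for Cers5, from -0.042 to 0.024 for Degs1 and from -0.048 to 0.024 for Kdsr. Cers5 in TA also changed sign with library totals (-0.0024) and with no filter (-0.0055). Between the mutants, where members were not tested, the values of Sptlc2 (-0.054 to 0.1), Cers2 (-0.04 to 0.071) and Cers5 (-0.019 to 0.098) changed sign as well. The cause was not tested. Scaling by library totals moved the median of all genes by 0.0676 in TD against WT. Low counts limit the precision for Sptssb, for Cers1, for Spns2 and for Sptlc3 in TD. RNA levels say nothing of protein or lipid amounts.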
